A study of Mus musculus with 6 samples.

Results

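Members of the interleukin-1 (IL-1) family, with the receptors and adaptors that carry their signal, were followed in cultured Schwann cells (SCs) with and without Plexin-B1. The set holds 10 of the 55401 genes in the count table, taken by Ensembl identifier from a list of names: the agonists Il1a and Il1b, the antagonist Il1rn, the alarmin Il33, the receptors Il1r1, Il1rl1 and Il1rap, the adaptor Myd88, and the kinases Irak1 and Irak4. Bulk RNA-seq was run on SC cultures started from the dorsal root ganglia of adult animals, with 3 libraries from WT and 3 from Plxnb1-/- mice. Whether the libraries of a genotype came from separate cultures is not stated. Values given for 3 libraries follow the order of replicates 1, 2 and 3. The mutant line, kept on a C57BL/6 background, carries a gene trap cassette with a transmembrane lacZ-neo insert at the Plxnb1 locus, in all cells of the animal. The study used WT and Plxnb1+/- littermates as controls. The control libraries here are labeled WT, and whether their donors were littermates of the mutants is not stated. All cultures of both genotypes received 2 µM forskolin, 10 nM neuregulin and 10% FBS, were depleted of Thy1-bearing fibroblasts on magnetic columns, and were used at passages 3 to 5, with a stated purity above 80%. The question was which genes of the IL-1 system differ between the genotypes in these cultures. The cells had been dissociated from the ganglia with enzymes and passaged, and no nerve injury or IL-1 treatment is stated for them.

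IL-1α and IL-1β bind the receptor IL-1R1, which then recruits the accessory chain IL-1RAcP, the product of Il1rap. The receptor antagonist encoded by Il1rn occupies IL-1R1 without recruiting that chain, and so blocks both agonists. IL-33 is a nuclear cytokine that is released from damaged cells and binds ST2, the product of Il1rl1, which uses the same accessory chain. Both receptor complexes signal through MyD88 to the kinases IRAK4 and IRAK1, and onward to NF-κB. In injured peripheral nerve, IL-1 is made by SCs and macrophages and is known for its role in the recruitment of leukocytes.

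The start sites of these genes are shown because the same letters, TATAAA, stand close before a start both of the agonists, which were barely detected, and of Il33, the member with the highest level per length. The 100 bases before an annotated start are given 5′ to 3′ from the RefSeq table for GRCm38.p6, with TATAAA and GGGCGG, sought on both strands, in capitals.
Il1a (chr2:129309973-129310072, minus strand): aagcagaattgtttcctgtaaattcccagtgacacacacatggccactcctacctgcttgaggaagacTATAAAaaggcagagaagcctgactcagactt
Il1b (chr2:129371140-129371239, minus strand): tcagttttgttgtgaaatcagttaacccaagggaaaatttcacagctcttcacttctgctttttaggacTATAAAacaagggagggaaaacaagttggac
Il33, downstream start (chr19:29945690-29945789, plus strand): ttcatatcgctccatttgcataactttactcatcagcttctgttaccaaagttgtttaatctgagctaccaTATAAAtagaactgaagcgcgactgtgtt
Il1rn, upstream start (chr2:24336760-24336859, plus strand): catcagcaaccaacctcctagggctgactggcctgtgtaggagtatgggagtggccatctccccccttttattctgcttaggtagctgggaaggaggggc
Il1r1, downstream start (chr1:40266486-40266585, plus strand): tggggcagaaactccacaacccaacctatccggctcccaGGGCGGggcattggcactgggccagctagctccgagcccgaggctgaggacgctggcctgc
Il1rap (chr16:26581605-26581704, plus strand): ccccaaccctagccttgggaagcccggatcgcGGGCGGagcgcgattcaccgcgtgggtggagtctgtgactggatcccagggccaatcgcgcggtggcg

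All 10 members matched the promoter table, with 16 windows of 300 bases between them (250 before and 50 after a start). TATAAA, the letters of the TATA box, stood in 13.6% of all 32851 windows in the table, and GGGCGG, the letters of the GC box, in 35.7%. Il1a and Il1b each held 1 TATAAA, starting 32 and 31 bases before the transcription start, and no GGGCGG. Il33 held 1 TATAAA in both of its windows, 29 bases before the downstream start and 203 bases before the upstream start. At the upstream start of Il1rn neither run of letters was found, and 1 of its other windows held TATAAA on the minus strand, after the start. Myd88 held 2 overlapping matches to TATAAA, 164 and 160 bases before its RefSeq start. That window (chr9:119339969-119340268) lies inside the span of the gene in GENCODE M21 (chr9:119335934-119341411, minus strand), so the 2 annotations place its start differently. The window of Il1rap held GGGCGG 4 times, the overlapping windows of Irak1 up to 2 times, and Irak4, Myd88 and the second window of Il1rl1 each held it 1 time. Il1r1 had 3 matches at its downstream start and none at its upstream start. A match describes the letters of the window and is not a measured binding site, and counts summed over exons do not tell which start was used.

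The libraries held from 59252048 to 77280964 counts. The floor of detection, set at 3 counts, corresponds to 0.0388 to 0.0506 CPM (counts scaled to a library of 1000000). It covers counting error only, and only if each count stands for a separate fragment, which the sources used here do not state. Plxnb1 itself measured between 45.4 and 96.4 CPM in WT SCs, against between 13.1 and 18.6 CPM in the Plxnb1-/- ones (log2 fold change −2.08, edgeR adjusted p = 0.0449), in counts summed over all its exons. The SC markers were present in every library, with Sox10 between 432 and 580 CPM. The summed level of 12 SC markers was between 3582 and 4164 CPM in WT SCs, against between 4173 and 4604 CPM in the Plxnb1-/- ones, and that of 10 fibroblast markers between 2412 and 3218 CPM in WT SCs, against between 2058 and 2320 CPM in the Plxnb1-/- ones. The 12 macrophage and leukocyte markers summed to between 115 and 140.2 CPM in WT SCs, against between 152 and 166 CPM in the Plxnb1-/- ones. Neuron markers summed to 157 to 170.2 CPM in WT and 171 to 198 CPM in Plxnb1-/- libraries, with 10 of 10 means higher in the latter, and satellite glia markers to 779.9 to 900.6 and 927 to 954 CPM, with 5 of 5 higher. In none of these 5 lists did the genotypes overlap, and their part in the differences of the members was not tested. Tubb3 made up most of the neuron sum, at 127 to 153 CPM, and Kcnj10 most of the satellite glia sum, at 639 to 798 CPM. The sums of the mast cell markers overlapped, as did those of the 6 endothelial markers, at 63.9 to 83.5 CPM in WT and 68.0 to 74.0 CPM in Plxnb1-/- libraries. Cdh5 made up most of the endothelial sum, at 51.6 to 68.0 CPM. In such bulk samples fewer cells of a type and less RNA per cell cannot be told apart. WT replicate 2 stood apart from the other WT libraries, with the highest fibroblast and the lowest SC marker sum of all 6 on the CPM scale. The labels do not say whether libraries of a genotype came from separate animals, so p-values measure only the spread between these samples, which may be technical.

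Il33 was the member with the most mRNA for its length, and the agonists Il1a and Il1b were close to absent. On the scale of CPM per kb of exon, with all annotated exons of a gene joined, Il33 measured 30.1 ± 5.55 in WT and 28.3 ± 1.33 in Plxnb1-/- SCs (SD, n = 3). Irak1 followed with 23.2 ± 0.994 in WT and 24.5 ± 0.35 in Plxnb1-/- SCs, and then Il1rap with 14.8 ± 2.22 and 18.1 ± 1.38 CPM per kb. Myd88 stood at 10.7 ± 0.518 and 10.3 ± 0.288 CPM per kb. Below these, Irak4 (7.33 ± 0.202 in WT and 7.15 ± 0.286 in Plxnb1-/- SCs) and Il1rn (5.74 ± 0.488 and 8.26 ± 0.866) were neighbors whose libraries overlapped, with Irak4 above Il1rn in 3 of the 6 libraries, the 3 WT ones. The ligand-binding receptors were lower, with Il1rl1 at 2.57 ± 0.83 and 2.22 ± 0.178 CPM per kb and Il1r1 at 1.64 ± 0.0964 and 2.11 ± 0.169 CPM per kb in WT and Plxnb1-/- SCs. Their libraries overlapped too, and every other pair of neighbors from Il33 down to Il1a was separated in all 6 libraries.

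**Figure D1:**
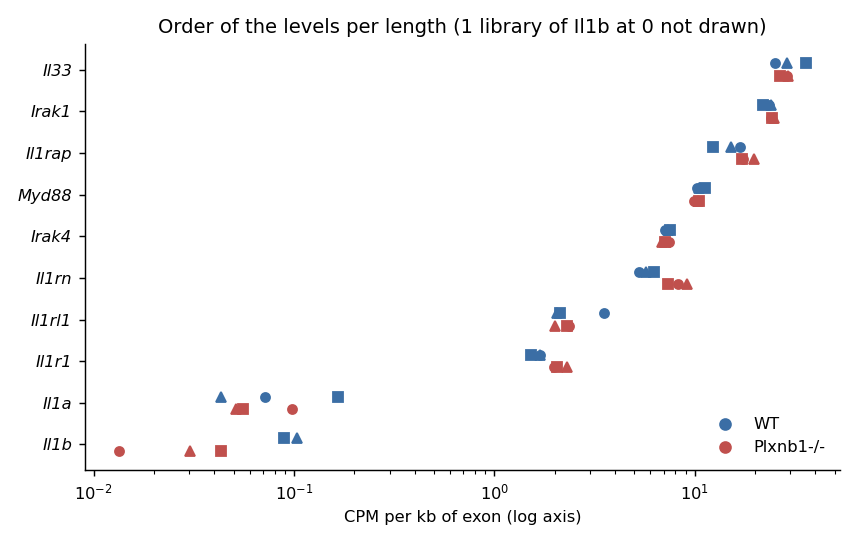
Level of each member in CPM per kb of exon on a log axis, 1 point per library (blue WT, red Plxnb1-/-; circle, square and triangle for replicates 1, 2 and 3), ordered by the mean over the 6 libraries. Il33 lies between 25.1 and 36.1 CPM per kb, no library of Il1a exceeds 0.164 and none of Il1b 0.104, and WT replicate 1 of Il1b, at 0, is not drawn.

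Positions of genes are those of GENCODE M21 on GRCm38. Il1a, the gene of IL-1α, lies on chromosome 2 (chr2:129299610-129309972, minus strand). It gave 9, 19 and 6 counts in the WT libraries against 15, 8 and 7 counts in the Plxnb1-/- libraries. The genotypes overlapped, and the log2 fold change of −0.40 had a 95% interval from −1.64 to 0.84 (adjusted p = 0.788 from edgeR). Il1b, which encodes IL-1β, lies nearby (chr2:129364570-129371139, minus strand). It had 0, 10 and 14 counts in the WT libraries and 2, 6 and 4 counts in the Plxnb1-/- libraries. For WT replicate 1 the count of 0 allows a level of up to 0.047 CPM by the floor set above. The log2 fold change of −1.15 had an interval from −3.19 to 0.90 (adjusted p = 0.604 from edgeR). No difference in either agonist was detectable at this depth. Leaving out a library moved the log2 fold change of Il1b between −1.72, without WT replicate 1, and −0.58, without WT replicate 3. Exons of both genes overlap a noncoding gene on the opposite strand, Gm14023 for Il1a and Il1bos for Il1b, and the strand setting of the counting is not given in the sources used here.

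Il1rn, the antagonist, had the smallest p of the members and the largest difference among those above the floor. It lies on the same chromosome (chr2:24336853-24351494, plus strand), and no exon of another gene overlaps its exons. It measured 29.2, 34.6 and 31.5 CPM in the WT libraries against 45.9, 40.9 and 50.5 CPM in the Plxnb1-/- libraries. Every Plxnb1-/- library was above every WT library. The ratio of Plxnb1-/- to WT was 1.44, with a 95% interval from 1.26 to 1.65 (log2 fold change 0.53, standard error 0.09). Its unadjusted p of 0.000177 had rank 22 among 22318 tested genes. After adjustment it was 0.168 by the quasi-likelihood test of edgeR, which did not call the gene. DESeq2, the tool of the study's methods, did call it, with an adjusted p of 2.45e-05. Leaving out any single library left the log2 fold change between 0.45 and 0.60 and edgeR's adjusted p between 0.0663 and 0.433.

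Macrophages also express Il1rn, so the macrophage and leukocyte markers are given beside it. All 12 had a higher mean in Plxnb1-/- SCs, and none of them was at 0 in all libraries. Higher means were also found for 11 of 12 SC, 10 of 10 neuron and 5 of 5 satellite glia markers. DESeq2 called 2 of the 12, Lyz2 and Cx3cr1, both higher, beside 0.690% of all tested genes in that direction, with edgeR calling none. Lyz2, which encodes lysozyme, stood between 79.5 and 99.7 CPM in WT SCs, against between 110 and 118 CPM in the Plxnb1-/- ones (log2 fold change 0.35, adjusted p = 0.266 from edgeR). The log2 ratio of Il1rn to the summed counts of the 12 markers was −2.26, −1.90 and −1.87 in the WT libraries against −1.83, −2.02 and −1.59 in the Plxnb1-/- libraries, a ratio chosen after the values were seen. On that ratio the genotypes overlapped, and Lyz2 made up most of the summed markers. The part of these cells in the difference of Il1rn was not tested.

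Il33, the alarmin (chr19:29925114-29960718, plus strand), overlapped between the genotypes. It measured 72.5, 104 and 83.8 CPM in the WT libraries against 83.4, 77.2 and 84.2 CPM in the Plxnb1-/- libraries. The Plxnb1-/- libraries lay inside the range of the WT libraries, with WT replicate 2 the highest of all. WT replicate 2 also had the highest fibroblast marker sum, and the part of fibroblasts in the level of Il33 was not tested. The ratio of 0.941 had a 95% interval from 0.79 to 1.12 (adjusted p = 0.768 from edgeR), and without WT replicate 2 the log2 fold change turned from −0.09 to 0.07.

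**Figure D2:**
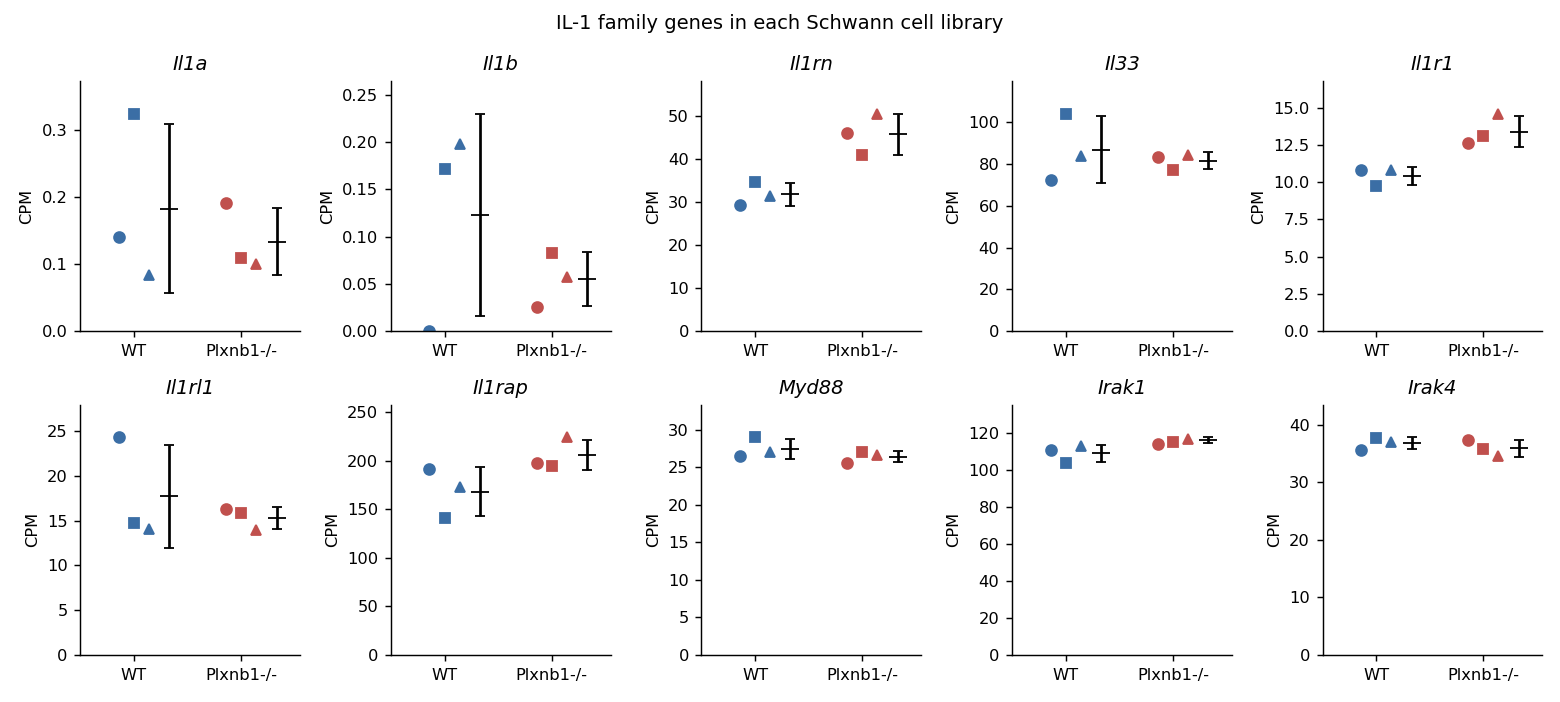
CPM of each member in the 6 libraries, with the vertical axis from 0 (blue WT, red Plxnb1-/-; circle, square and triangle for replicates 1, 2 and 3; black bar and whiskers for mean and SD, n = 3). Il1rn, Il1r1, Il1rap and Irak1 are the 4 panels in which all red points stand above all blue points, and Il1a and Il1b stay at or below 0.325 and 0.198 CPM. Of all tested genes, 9.30% were likewise higher without overlap, and 19.7% did not overlap in either direction.

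Among the receptors, Il1r1 and Il1rap were higher in every Plxnb1-/- library than in any WT library, and Il1rl1 was not. Of all tested genes, 9.30% were higher in this way. Il1r1 encodes the signaling receptor for both agonists (chr1:40225080-40317257, plus strand). It measured 10.8, 9.74 and 10.8 CPM in the WT libraries against 12.6, 13.1 and 14.6 CPM in the Plxnb1-/- libraries. The ratio of Plxnb1-/- to WT was 1.28, with an interval from 1.13 to 1.46 (log2 fold change 0.36, adjusted p = 0.266 from edgeR). DESeq2 called it, with an adjusted p of 0.0152. Over the 6 fits that left out a library, the log2 fold change stayed between 0.29 and 0.40 and edgeR's adjusted p between 0.13 and 0.673. Fibroblasts also express Il1r1, and 9 of the 10 fibroblast markers had a lower mean in Plxnb1-/- SCs. Col6a3, which DESeq2 called lower, made up most of their sum, with 1410 to 1720 CPM in WT and 1060 to 1300 CPM in Plxnb1-/- libraries, while Dcn overlapped, at 234 to 320 and 273 to 289 CPM. Thy1, on which the depletion relied, was still at 429 to 652 CPM in WT and 384 to 410 CPM in Plxnb1-/- libraries (log2 fold change −0.39, adjusted p = 0.293 from edgeR). The log2 ratio of Il1r1 to the summed counts of the 10 fibroblast markers was −7.81, −8.37 and −7.96 in the WT libraries. In the Plxnb1-/- libraries it was −7.43, −7.47 and −7.14, without overlap, a ratio chosen after the values were seen. The marker sum, lower in the Plxnb1-/- libraries, also enters that ratio. The part of fibroblasts in the difference of Il1r1 was not tested.

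Il1rap encodes the accessory chain shared by the IL-1, IL-33 and IL-36 receptors, and its soluble and membrane forms share exons that the counts sum (chr16:26581704-26730117, plus strand). Of its exons, 552 bases overlap the antisense gene Gm20319, and with the strand setting unknown its reads cannot be told apart from those of that gene there. It measured 191, 141 and 173 CPM in the WT libraries against 198, 195 and 224 CPM in the Plxnb1-/- libraries. WT replicate 2 was the lowest, and the gap between the nearest libraries of the genotypes was small, from 191 to 195 CPM. The ratio was 1.22 with an interval from 1.04 to 1.43 (log2 fold change 0.29, adjusted p = 0.299 from edgeR and 0.109 from DESeq2). Without WT replicate 2 the log2 fold change was 0.18. Il1rl1, the ST2 receptor (chr1:40429570-40465415, plus strand), measured 24.3, 14.7 and 14.1 CPM in the WT libraries against 16.3, 15.8 and 13.9 CPM in the Plxnb1-/- libraries. WT replicate 1 was far above the other libraries, which lay between 13.9 and 16.3 CPM. The ratio of 0.865 had an interval from 0.646 to 1.16 (adjusted p = 0.649 from edgeR), and without WT replicate 1 the log2 fold change turned from −0.21 to 0.09. Mast cells are known for Il1rl1, and the 8 mast cell markers summed to between 1.2 and 2.1 CPM. Most of that sum was Kit, which other cells also express, at 1.06 to 1.88 CPM, and of the other markers none exceeded 0.138 CPM in any library and Fcer1a was at 0 in all.

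The summed mRNA of Il1rn relative to that of Il1r1 overlapped between the genotypes. Counts run over all annotated exons of each gene, so forms of the antagonist from different transcripts cannot be told apart. The log2 ratio of Il1rn counts to Il1r1 counts within a library was 1.44, 1.83 and 1.54 in the WT libraries against 1.87, 1.64 and 1.79 in the Plxnb1-/- libraries. The means were 1.60 ± 0.20 and 1.77 ± 0.11 (SD, n = 3), a difference of 0.16 (exact two-sided permutation test, p = 0.3, where 3 against 3 cannot go below 0.1). With that lower limit the test cannot decide whether the ratio differs. Both genes were higher in Plxnb1-/- SCs (log2 fold changes 0.53 and 0.36), and a difference shared by both cancels in their ratio.

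The adaptor and the kinases varied little. Myd88, the adaptor of the IL-1 and Toll-like receptors, measured 26.5, 29.0 and 27.0 CPM in the WT libraries against 25.6, 27.0 and 26.7 CPM in the Plxnb1-/- libraries. The libraries overlapped, and the ratio was 0.96 with an interval from 0.882 to 1.05 (adjusted p = 0.669 from edgeR). It lies on chromosome 9 (chr9:119335934-119341411, minus strand), 10.22 Mb from Plxnb1, and 290 bases of its exons overlap Acaa1a on the opposite strand. Irak4, the kinase that binds MyD88, is on the plus strand at chr15:94543643-94581815 and overlaps Twf1 on the opposite strand. It measured 35.7, 37.7 and 37.0 CPM in the WT libraries against 37.4, 35.8 and 34.5 CPM in the Plxnb1-/- libraries, overlapping, with a ratio of 0.975 and an interval from 0.903 to 1.05 (adjusted p = 0.79 from edgeR).

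Irak1, the kinase that IRAK4 phosphorylates, is on the X chromosome (chrX:74013914-74023918, minus strand). It measured 111, 104 and 113 CPM in the WT libraries against 114, 115 and 117 CPM in the Plxnb1-/- libraries. The genotypes did not overlap, with 113 and 114 CPM as the nearest libraries, and the ratio of 1.06 had an interval from 0.987 to 1.13 (adjusted p = 0.452 from edgeR). For the adaptor and both kinases the intervals end at ratios between 0.882 and 1.13.

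Counted over the 10 members, the quasi-likelihood test of edgeR called 0. A call needed both an adjusted p under 0.05 and a log2 fold change beyond 0.25 in size, and 0.0358% of all 22318 tested genes (8 genes) met it. DESeq2 called 2, Il1rn and Il1r1, both higher in Plxnb1-/- SCs, against 1.50% of all tested genes in either direction and 0.690% in that direction, and gave Il1a and Il1b no adjusted p because of its filter on low means. At an unadjusted p below 0.05, edgeR listed 3 members, Il1rn, Il1r1 and Il1rap, all higher, against 13.7% of all tested genes in either direction and 6.95% in that direction. Without the filter on low counts edgeR called 2, again Il1rn and Il1r1, both higher, against 0.949% of 31191 genes in either direction and 0.385% in that direction. The libraries of the genotypes did not overlap in 4 members, all of them higher in Plxnb1-/- SCs, against 19.7% of all tested genes in either direction and 9.30% in that direction. All 10 members were tested, Il1b with no more than 3 counts in 2 libraries, and 4 had a log2 fold change above 0 and 6 below. Their median was −0.05, beside 0.00 for all tested genes.

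**Figure D3:**
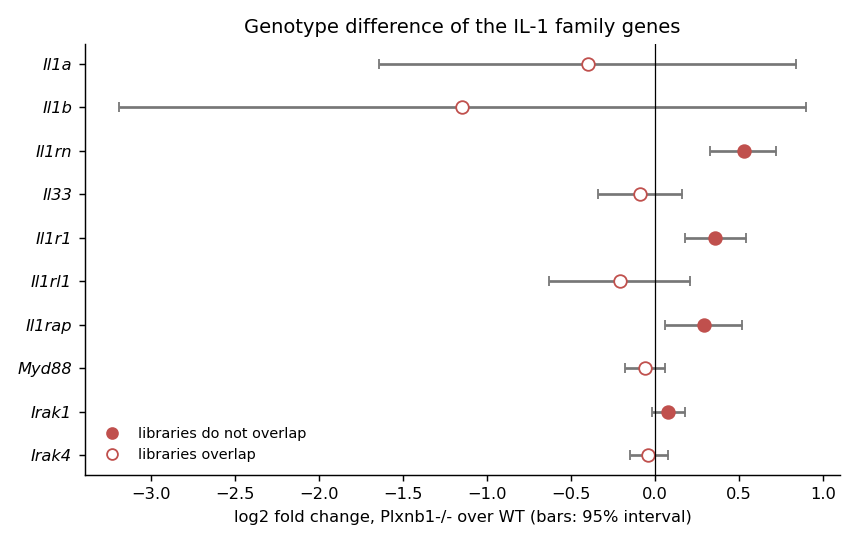
Log2 fold change of each member, Plxnb1-/- over WT, from edgeR, with 95% intervals (filled points mark members whose libraries do not overlap between genotypes). The intervals of Il1rn, Il1r1 and Il1rap lie above 0, those of Myd88, Irak1 and Irak4 are narrow and include 0, and those of Il1a and Il1b are the widest.

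The rest of the pathway was read from 6 lists of 75 genes, of which 63 passed the filter on low counts. Across them edgeR called 0 genes, with 10 (15.9%) at an unadjusted p below 0.05 beside 13.7% of all tested genes. DESeq2 called 2 (3.17%), 1 higher and 1 lower, beside 1.50%, and gave 12 of the 63 no adjusted p. The libraries of the genotypes did not overlap in 14 of the 63 (22.2%), beside 19.7% of all tested genes. The median log2 fold change was 0.01 over the 16 proximal signal transducers, −0.03 over the 14 genes of the NF-κB module, −0.02 over the 13 genes of the inflammasome and of IL-1 processing, and 0.03 over the 12 tested genes known to respond to IL-1.

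Peli2 was the call upward. It encodes Pellino-2, a ubiquitin ligase that binds IRAK kinases. It measured 48.2, 40.9 and 48.6 CPM in the WT libraries against 53.6, 58.9 and 61.3 CPM in the Plxnb1-/- libraries, without overlap (log2 fold change 0.33, adjusted p = 0.266 from edgeR and 0.011 from DESeq2). Tnfaip3 was the call downward, a direction in which DESeq2 called 0.811% of all tested genes. It encodes A20, an NF-κB target that limits NF-κB signaling, and it measured 6.31, 7.41 and 7.47 CPM in the WT libraries against 5.27, 4.77 and 4.46 CPM in the Plxnb1-/- libraries. The libraries did not overlap (log2 fold change −0.55, 95% interval −0.78 to −0.31, adjusted p = 0.228 from edgeR and 0.00207 from DESeq2). Nfkbia, which encodes the inhibitor IκBα and is another target of NF-κB, overlapped, with 17.5 ± 2.09 CPM in WT SCs, against 16.1 ± 0.404 CPM in the Plxnb1-/- ones (SD, n = 3; log2 fold change −0.12, adjusted p = 0.56 from edgeR); it was added after its values were seen.

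In each of the other lists with a gene that did not overlap, the one with the smallest p is named. Casp1, the protease that cleaves pro-IL-1β, measured 9.20 ± 1.11 CPM in WT SCs, against 11.0 ± 0.667 CPM in the Plxnb1-/- ones (SD, n = 3; log2 fold change 0.26, adjusted p = 0.317 from edgeR). Ccl2, the monocyte chemokine and the response gene with the smallest p, measured 15.1 ± 0.547 CPM in WT SCs, against 12.7 ± 0.822 CPM in the Plxnb1-/- ones (log2 fold change −0.25, adjusted p = 0.273 from edgeR). Il1r2, the decoy receptor, had 8, 14 and 6 counts in the WT libraries against 4, 4 and 4 counts in the Plxnb1-/- libraries, just above the floor in the latter (adjusted p = 0.324 from edgeR).

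**Figure D4:**
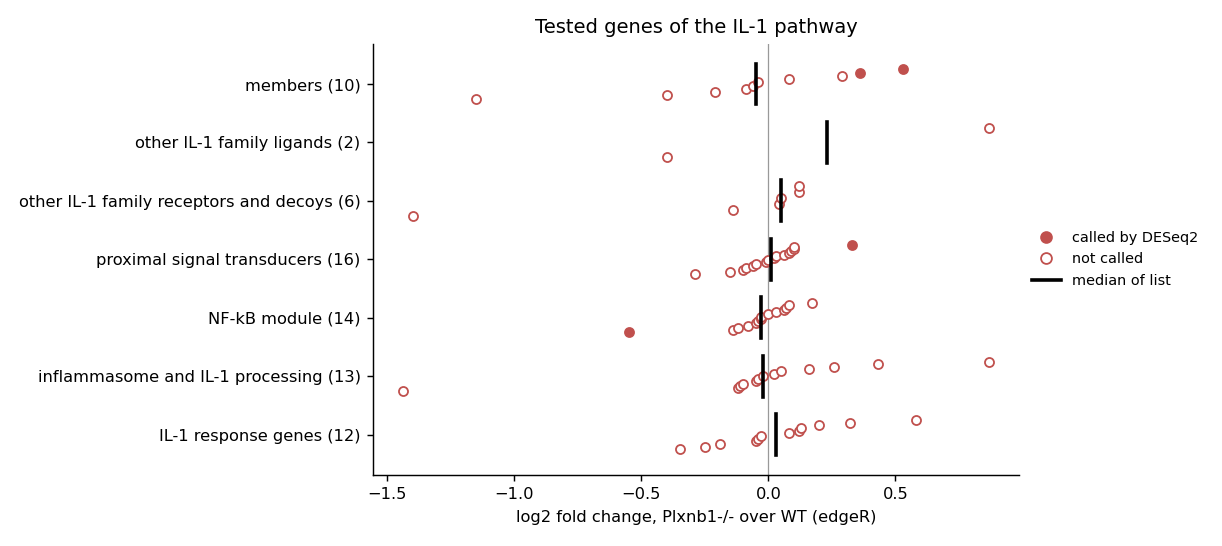
Log2 fold change, Plxnb1-/- over WT, of each tested gene in the 10 members and the 6 pathway lists, with the number of tested genes in brackets and a black bar at the median of each list (filled points are called by DESeq2). The filled points are Il1rn, Il1r1 and Peli2 to the right and Tnfaip3 to the left, and the medians of the 4 pathway lists with more than 6 tested genes lie between −0.03 and 0.03.

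The genes whose log2 CPM followed Il1rn and Il1r1 most closely over the 6 libraries are given as a description, with no test, and the 6 points share the difference in genotype. For Il1rn these were Specc1l, Zfp715 and Ager, with Pearson's r of 0.993, 0.986 and 0.983, and 35 of 14992 genes with a mean of at least 1 CPM reached 0.95. An r does not reflect the size of a change. The log2 fold changes of Specc1l, Zfp715 and Ager were 0.05, 0.08 and 0.40, beside 0.53 for Il1rn. For Il1r1 the closest were Etv5, Sod3 and 2810468N07Rik, with r of 0.997, 0.995 and 0.994, and 202 genes reached 0.95. The log2 fold changes of Etv5, Sod3 and 2810468N07Rik were 0.18, 0.51 and 0.39, beside 0.36 for Il1r1.

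**Figure D5:**
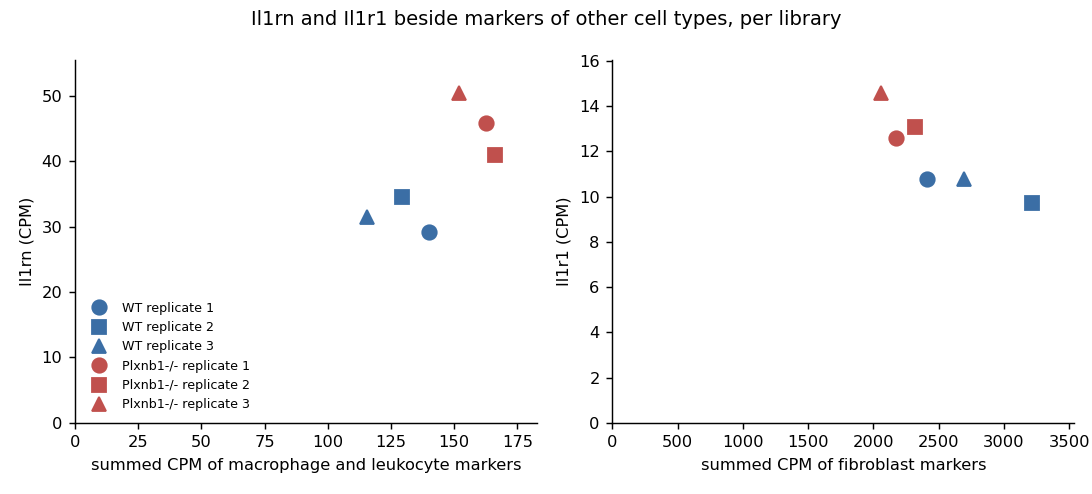
Il1rn against the summed CPM of 12 macrophage and leukocyte markers (left) and Il1r1 against the summed CPM of 10 fibroblast markers (right), 1 point per library, axes from 0 (blue WT, red Plxnb1-/-; circle, square and triangle for replicates 1, 2 and 3). The red points lie above the blue ones in both panels, to the right of them on the left and to the left of them on the right.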

How the data were processed

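The deposited counts were made by the authors, who trimmed reads with Trim Galore 0.6.5, aligned them to mm10 with Bowtie2 2.4.1, removed duplicates with SAMtools 1.10 and counted them on exons with featureCounts and GENCODE M25. The deposited FPKM values divide these counts by the span of the gene, introns included (within 1% in 99.5% of 14948 genes), and were used only as an alternative. Identifiers were matched without version to GENCODE M21 on GRCm38 (55141 of 55401), and IL-36 genes through RefSeq synonyms.

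Genes were kept where 5 or more of the 6 libraries reached 2 counts, and were tested with edgeR 4.0.16 (TMM, quasi-likelihood, genotype as the only term) in R 4.3.3, with Benjamini-Hochberg adjustment over all tested genes. DESeq2 1.42.0 and limma 3.58.1 served as alternatives. Standard errors are the log2 fold change over the square root of F. CPM are TMM-normalized. The fit was tested on simulated data. Members and gene lists were chosen with earlier results of these data known. Outside the members, named genes are Plxnb1, any pathway gene called by edgeR or DESeq2, the gene with the smallest p among those not overlapping in each pathway list, and the 3 genes closest in pattern to Il1rn and Il1r1; other names were added after their values were seen. Python 3.11.15, pandas 2.3.3 and SciPy 1.17.1 were used for tables and the exact permutation test. Protein sequences were not used here.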

Additional observations from a re-analysis of the deposited data

How the results depend on the processing

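Over all genes, 8 calls became 335 with DESeq2 (154 higher and 181 lower), 296 without a filter on low counts (120 higher and 176 lower), 3 with limma on log2(FPKM + 0.01) and 3 on log2(FPKM + 0.1), and between 4 and 25 with a library left out, the most without WT replicate 2. With the replicate number as a block the count was 5. The labels do not say whether equal replicate numbers mark pairs. Same-numbered libraries had correlations of their deviations of −0.022, 0.008 and 0.065, and the other combinations lay between −0.053 and 0.049. With 3 libraries per genotype these values cannot decide whether libraries were paired. Of the members 0 were called in 14 of 16 alternatives, the replicate block included, and 2, Il1rn and Il1r1, with DESeq2 and also without a filter (adjusted p = 0.0023 and 0.0491 from edgeR, where 0.949% of 31191 genes were called). The pathway lists had 2 calls, Peli2 and Tnfaip3, with DESeq2 and without a filter, and 0 in the other 14 alternatives. The members' calls with a library left out ranged from 0 to 0, as did those of the pathway lists. Over all alternatives the log2 fold change of Il1rn lay between 0.45 and 0.60 and that of Il1r1 between 0.21 and 0.40, the lowest on log2(FPKM + 0.1). Il1b kept its direction but moved to −0.12 on log2(FPKM + 0.1). It ranged from −1.72 to −0.58 with a library left out. In the same fits Il1a ranged from −0.76 to 0.28, Il33 from −0.20 to 0.07 and Il1rl1 from −0.35 to 0.09, positive without WT replicate 2 for Il1a and Il33 and without WT replicate 1 for Il1rl1, and Il1a, Il33 and Il1rl1 were the only members to change direction in any alternative. Il1a and Il1b dropped out under edgeR's own filter, and at this depth a difference in either could not be seen. The difference in the log2 ratio of Il1rn to Il1r1 lay between 0.08 and 0.28 with a library left out. The causes of these changes were not tested.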

Other observations

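The IL-36 and IL-18 branches of the family were present in part, in genes chosen after their values were seen. Il1rl2, the receptor of the IL-36 cytokines, stood at 26.5 ± 1.52 CPM in WT SCs, against 28.9 ± 1.57 CPM in the Plxnb1-/- ones (SD, n = 3; log2 fold change 0.12, adjusted p = 0.422 from edgeR), more counts than Il1r1 in every library. Its ligands Il36a and Il36b and its antagonist Il36rn had 0 counts in all 6 libraries, and Il36g had 2 counts in WT replicate 3 and 0 elsewhere, all at or under the floor of 3 counts per library. Il1f10, the gene of IL-38, which also binds this receptor, was over the floor in every library, with 10, 14 and 22 counts in WT and 44, 17 and 35 counts in Plxnb1-/- replicates 1, 2 and 3, overlapping (log2 fold change 0.87, adjusted p = 0.375 from edgeR). Il18 lay between 0.447 and 1.23 CPM and the secreted IL-18 inhibitor Il18bp between 2.63 and 3.26 CPM, with overlap between genotypes for both. The receptor gene Il18r1 did not pass the filter on low counts, and Il18rap, its partner chain, lay between 1.03 and 2.80 CPM.

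Among the genes known to respond to IL-1, those with the highest CPM were the cytokine Lif and the prostaglandin synthase Ptgs2, both chosen after their values were seen. Lif measured 266 ± 19.6 CPM in WT SCs, against 258 ± 25.7 CPM in the Plxnb1-/- ones (SD, n = 3; log2 fold change −0.05, adjusted p = 0.825 from edgeR). Ptgs2 measured 240 ± 29.1 CPM in WT SCs, against 211 ± 28.3 CPM in the Plxnb1-/- ones (log2 fold change −0.19, adjusted p = 0.472 from edgeR). Il6 stood at 6.90 ± 1.73 and 6.68 ± 0.94 CPM (adjusted p = 0.938 from edgeR), while the neutrophil chemokine gene Cxcl2 and the acute-phase gene Lcn2 did not pass the filter on low counts. Libraries of the genotypes overlapped for Lif, Ptgs2 and Il6.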
